A study of Mus musculus with 22 samples.

Results

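The alveolar capillary bed was followed through 10 genes that mark its endothelial cells. Car4, Ednrb, Apln, Kitl and Tbx2 mark aerocytes, and Gpihbp1, Plvap, Kit, Aplnr and Cd93 mark general capillary cells. They were chosen by name as markers of those cell types, out of 22520 genes in the deposited expression table. All 10 were found, and all 10 passed the filter on low values, which left 14200 genes for testing.

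The libraries were made from polyadenylated RNA of whole lungs of newborn mice that had been kept in room air or in hyperoxia. The 22 libraries fall into 8 groups by sex, oxygen status and day of harvest, which was postnatal day 7 (PND7) or postnatal day 21 (PND21). At PND7 there were 2 male and 3 female libraries in room air and 3 male and 2 female libraries in hyperoxia, and each of the 4 groups at PND21 had 3. The labels name no genotype or transgene, and strain, oxygen concentration, length of exposure and the animal behind each library are not given in the sources used here, so p-values measure the spread between these libraries, which may be technical.

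Aerocytes are broad, thin capillary cells that cover most of the gas exchange surface, and general capillary cells are smaller, take part in the control of vessel tone and can renew both cell types after injury. The cell types are joined by ligands and receptors: aerocytes make apelin (Apln), whose receptor Aplnr sits on general capillary cells, and the stem cell factor gene Kitl has its receptor, Kit, on general capillary cells. High oxygen in newborn rodents is a common model of bronchopulmonary dysplasia, a lung disease of preterm infants in which the growth of alveoli and capillaries is disturbed. Several of the markers are shared with other lung cells, such as Kit with mast cells and Tbx2 with mesenchymal cells.

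Apln and Kit are the ligand and the receptor with the largest differences between hyperoxia and room air at PND7 among these genes, in opposite directions. Their promoters are therefore shown, from RefSeq on the GRCm38.p6 build, as the stretch before the annotated gene, read 5′ to 3′ along each gene's strand. The Apln stretch is chrX:48034854-48035103 (minus strand) and the Kit stretch is chr5:75574737-75574915 (plus strand). Capitals mark AGGAAG, or its reverse complement, a site of ETS factors, which are widely used in endothelial genes.
Apln: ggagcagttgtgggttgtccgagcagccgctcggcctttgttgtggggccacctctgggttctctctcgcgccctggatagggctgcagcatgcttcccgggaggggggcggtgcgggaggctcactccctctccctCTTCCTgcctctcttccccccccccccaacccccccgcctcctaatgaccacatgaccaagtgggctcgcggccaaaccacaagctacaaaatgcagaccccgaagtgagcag
Kit: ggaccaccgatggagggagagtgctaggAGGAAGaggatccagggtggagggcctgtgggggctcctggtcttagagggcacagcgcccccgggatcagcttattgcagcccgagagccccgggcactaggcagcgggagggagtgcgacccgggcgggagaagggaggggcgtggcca
RefSeq promoter entries were matched for 5 of the 10 genes (Car4, Ednrb, Apln, Kitl and Kit), each of 250 bases before the RefSeq start. That start can differ from the gene's start in GENCODE, which gives the gene coordinates here: the Ednrb window lies wholly inside the annotated gene, and only 59 bases of the Kitl window and 179 of the Kit window precede it. AGGAAG was found on either strand in 2 of these 5, against 29.2% of 27025 promoters of the same length, and CCGGAA, another ETS site that shares the letters GGAA with it, in 2 of 5 (Car4 and Kitl), against 12.2%; the Kitl match lies inside the annotated gene. The hypoxia response element core ACGTG (16.6% of promoters), the antioxidant response element core TGACNNNGC (10.1%) and the GATA site AGATAA (10.3%) had no match in the 5 windows. A match is a stretch of letters only.

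All values are in FPKM, a count of sequenced fragments divided by transcript length and by the size of the library, after quantile normalization. Lung tissue was represented in each library: the surfactant gene Sftpc stood between 8742 and 20504.1, and the endothelial cadherin gene Cdh5 between 139.7 and 311. In 6 libraries skeletal muscle transcripts were high, 2 of them in room air and 2 in hyperoxia at PND7 and 2 in room air at PND21. At PND7 the summed level of 9 skeletal muscle genes was 11.3 to 842 for room air and 9.36 to 1278 for hyperoxia. At PND21 it was 10.9 to 2859 and 7.87 to 66.4. At PND7 the room air samples bore title numbers 17 to 23 and the hyperoxia samples 26 to 33. Any effect of the order behind those numbers cannot be told apart from that of oxygen at PND7. At PND21 the numbers were mixed between the exposures (3 to 13 for room air, 6 to 15 for hyperoxia).

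At PND7, hyperoxia went with lower levels of 4 of the 5 general capillary genes (Kit, Gpihbp1, Aplnr and Cd93) and with a split among the aerocyte genes, of which Apln rose and Kitl fell. Calls rest on limma, with p-values adjusted over all genes tested by the Benjamini-Hochberg method and a threshold of 0.05. By that rule 6 of the 10 genes were called for both sexes combined, against 23.4% of all genes; 1 was higher (9.79% of all genes) and 5 were lower (13.6%). The median log2 difference was -0.55 over the 5 general capillary genes and -0.14 over the 5 aerocyte genes, beside -0.01 over all genes tested. Without the 6 libraries rich in muscle transcripts, Apln stayed called higher and Kit, Gpihbp1 and Aplnr stayed called lower, and Kitl (-0.25, adjusted p = 0.0824) and Cd93 (-0.41, adjusted p = 0.0650) did not pass. In that fit 11.9% of all genes were called. In whole tissue, fewer cells of a type and less RNA per cell cannot be told apart.

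Kit (ENSMUSG00000005672, chromosome 5, 75574916 to 75656722 on GRCm38), the receptor tyrosine kinase for stem cell factor, had the largest difference of the 10 genes. In room air at PND7 its level was 47.1 and 40.0 in the male libraries and 38.9, 36.4 and 51.7 in the female ones. In hyperoxia it was 20.1, 16.5 and 14.2 in males and 21.2 and 12.03 in females. Every hyperoxia library lay below every room air library, in both sexes. The mean was 42.8 ± 6.35 (SD, n = 5) in room air and 16.8 ± 3.87 (SD, n = 5) in hyperoxia, which is 2.55-fold lower. On the log2(value + 1) scale the difference was -1.33 (SE 0.14, adjusted p = 1.25e-05).

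Aplnr (ENSMUSG00000044338, chromosome 2, 85136225 to 85139923), the apelin receptor, stood at 52.7 and 53.9 in male and 52.9, 47.0 and 59.5 in female room air libraries. In hyperoxia it stood at 37.3, 37.9 and 34.8 in males and 39.4 and 31.9 in females. The exposures again did not overlap, and the sexes lay within the same range. The log2 difference was -0.55 (SE 0.11, adjusted p = 0.00268).

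Gpihbp1 (ENSMUSG00000022579, chromosome 15, 75596628 to 75599481) anchors lipoprotein lipase on the capillary wall. Its level was 120.3 and 122 in male and 115, 114 and 147 in female room air libraries at PND7, and 108, 69.5 and 76.4 in male and 82.2 and 61.2 in female hyperoxia libraries. The groups did not overlap, but the male hyperoxia library at 108, which is rich in muscle transcripts, came near the room air range. The log2 difference was -0.67 (SE 0.12, adjusted p = 0.00115), and -0.76 (adjusted p = 0.000166) without that library.

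Cd93 (ENSMUSG00000027435, chromosome 2, 148436640 to 148443563), a lectin-like receptor of endothelial cells, was at 98.1 and 92.5 in male and 80.8, 80.3 and 92.2 in female room air libraries. In hyperoxia it was at 64.0, 61.9 and 62.0 in males and 76.4 and 59.1 in females. There was no overlap, and the female library at 76.4 was the nearest to room air. The log2 difference was -0.46 (SE 0.12, adjusted p = 0.0117). It did not pass without female hyperoxia library 2, at -0.37 (adjusted p = 0.0733).

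Plvap (ENSMUSG00000034845, chromosome 8, 71497765 to 71511752), which forms the diaphragms of endothelial vesicles and pores, was the general capillary gene that was not called. It ranged between 92.6 and 131 in room air and between 83.7 and 101 in hyperoxia at PND7, with a log2 difference of -0.17 (SE 0.09, adjusted p = 0.173). The male libraries of the exposures overlapped, and both female hyperoxia libraries lay at 88.7, below the female room air libraries at 109.5, 101 and 131.

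Apln (ENSMUSG00000037010, chromosome X, 48025146 to 48034853) encodes apelin, the secreted ligand of Aplnr, and was the only member called higher. Its room air level at PND7 was 19.6 and 19.4 in males and 21.5, 19.8 and 18.3 in females. In hyperoxia it was 26.6, 30.6 and 45.3 in males and 32.9 and 34.5 in females. The highest room air library lay below the lowest hyperoxia library. The mean rose from 19.7 ± 1.15 to 34.0 ± 7.0 (SD, n = 5 each), which is 1.72-fold, with a log2 difference of 0.74 (SE 0.14, adjusted p = 0.00173).

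Kitl (ENSMUSG00000019966, chromosome 10, 100015630 to 100100416), the ligand of Kit, was 47.2 and 43.2 in male and 47.2, 42.8 and 43.3 in female room air libraries. It was 43.2, 37.0 and 37.8 in male and 40.1 and 32.8 in female hyperoxia libraries. The ranges overlapped at 1 male hyperoxia library, and the other 4 lay below room air. The log2 difference of -0.24 (SE 0.08) was just past the threshold (adjusted p = 0.0473), and 14 of 21 other analyses left it uncalled. Of these, 8 left out a single library, with adjusted p from 0.0561 to 0.230. Taken relative to pan-endothelial genes it was 0.12 and so in the other direction (adjusted p = 0.164).

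The remaining aerocyte genes were not called at PND7. Ednrb (ENSMUSG00000022122, chromosome 14, 103814625 to 103844402), the endothelin B receptor, was 17.96 and 19.3 in male and 18.8, 18.3 and 21.0 in female room air libraries. In hyperoxia it was 13.3 and 12.5 in 2 male and 14.2 and 11.2 in the female libraries, but 25.1 in male library 1. That library, rich in muscle transcripts, held the highest Ednrb level of PND7 and the other 4 hyperoxia libraries lay below all room air libraries. The log2 difference was -0.39 (SE 0.16, adjusted p = 0.0844), and -0.54 (adjusted p = 0.00404) without it.

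Car4 (ENSMUSG00000000805, chromosome 11, 84957786 to 84966044), a membrane-bound carbonic anhydrase, ranged between 58.6 and 73.0 in room air and between 62.1 and 112 in hyperoxia at PND7. The value of 112 came from the same male library 1, and the other hyperoxia libraries did not pass 75.3. The log2 difference was 0.20 (SE 0.12, adjusted p = 0.223), and 0.10 without that library. Tbx2 (ENSMUSG00000000093, chromosome 11, 85832551 to 85841948), a T-box transcription factor, ranged between 95.6 and 152 in room air and between 90.4 and 103 in hyperoxia, with a log2 difference of -0.14 (SE 0.12, adjusted p = 0.414). The 152 was in female room air library 3, which also held the highest PND7 levels of Gpihbp1, Plvap, Kit and Aplnr.

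Counted by range, 5 of the 10 genes had no overlap between the 5 room air and the 5 hyperoxia libraries of PND7, namely Apln, Kit, Aplnr, Gpihbp1 and Cd93. Of all genes 17.8% had none.

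**Figure D1:**
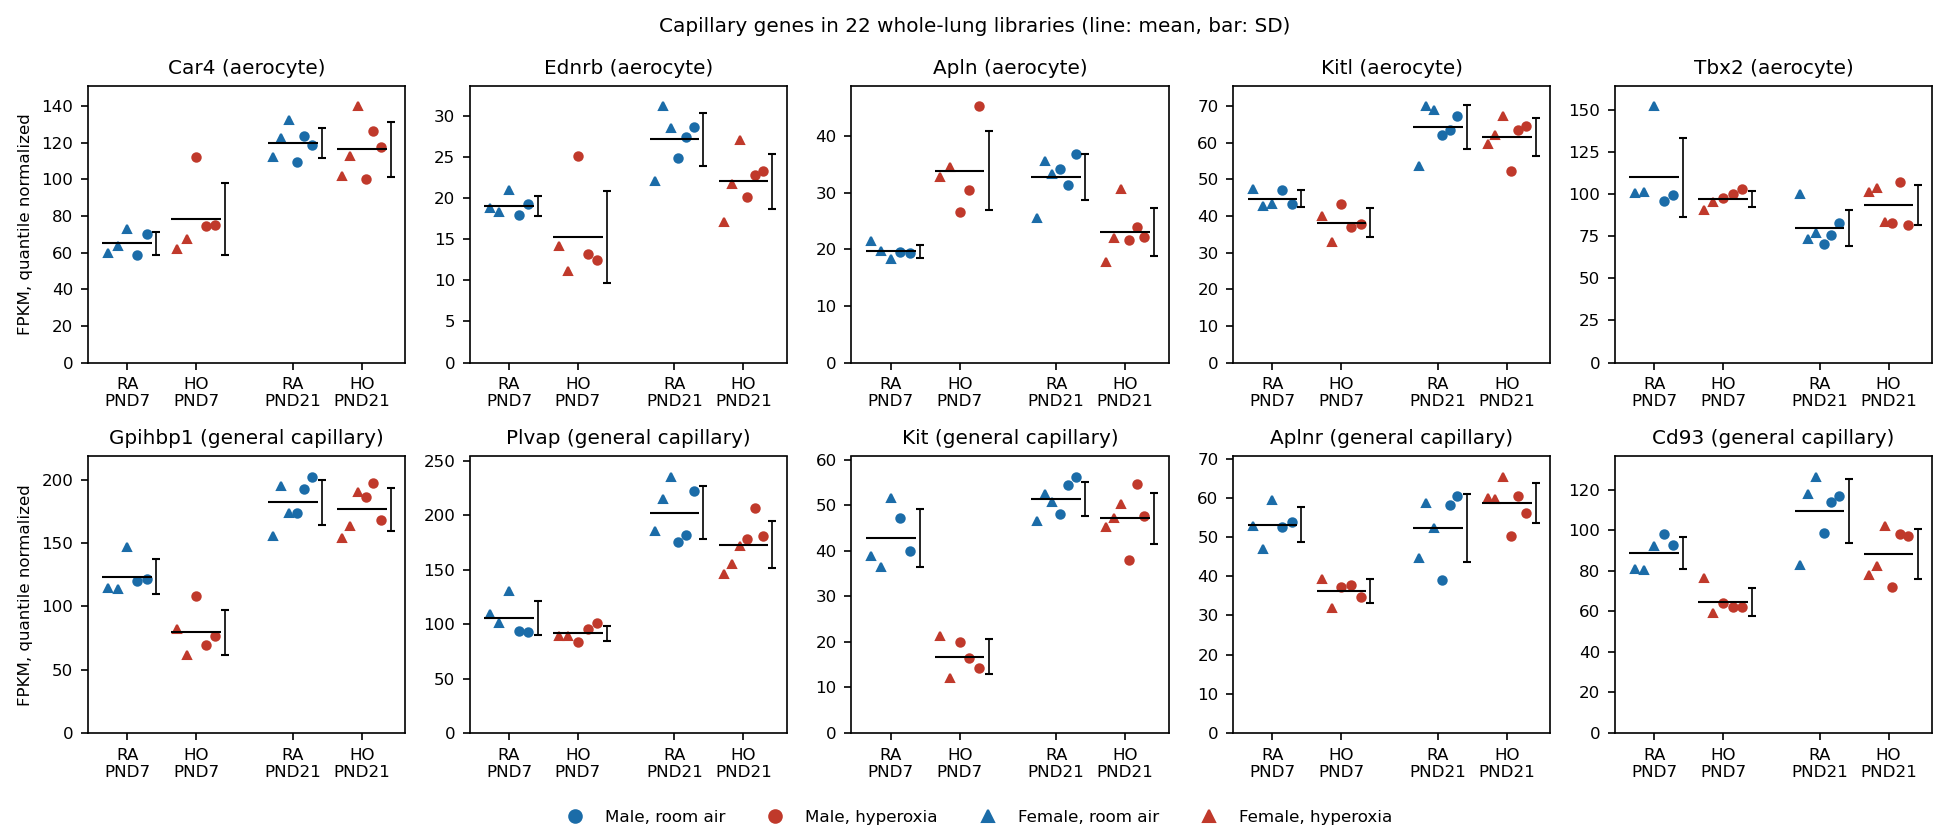
FPKM after quantile normalization (y axis, from 0) of the 10 genes in each of the 22 libraries, by oxygen status (RA, room air; HO, hyperoxia) and day; circles are males, triangles females, lines the means and bars the SD. Kit in hyperoxia at PND7 lies between 12.03 and 21.2, below all other groups, and Apln lies highest at 45.3 in the same exposure and day.

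Each library also gave a difference between the gene groups, as the mean log2(value + 1) of the 5 aerocyte genes minus that of the 5 general capillary genes. It is a description of the same values and was given no test. In room air at PND7 it ran from -0.95 to -0.78, and in hyperoxia from -0.42 to -0.09. At PND21 it lay between -0.92 and -0.75 in room air and between -0.94 and -0.80 in hyperoxia, so that the hyperoxia libraries of PND7 stood apart from the other groups. The aerocyte genes averaged 5.40 and 5.45 and the general capillary genes 6.27 and 5.64 on the log2(value + 1) scale, in room air and hyperoxia of PND7.

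Ligand and receptor were set against each other in each library in the same way, again without a test. Apln minus Aplnr averaged -1.38 ± 0.17 (SD, n = 5) on the log2 scale in room air and -0.11 ± 0.34 (SD, n = 5) in hyperoxia at PND7, and in the latter 2 of 5 libraries had more Apln than Aplnr. At PND21 it averaged -0.65 ± 0.24 in room air and -1.32 ± 0.22 in hyperoxia (SD, n = 6 each). Kitl minus Kit averaged 0.07 ± 0.21 in room air and 1.16 ± 0.20 in hyperoxia at PND7, and 0.31 ± 0.10 and 0.38 ± 0.09 at PND21. For Kit and Kitl the PND7 hyperoxia libraries were the ones that differed, whereas for apelin the order of the exposures was turned around at PND21.

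**Figure D2:**
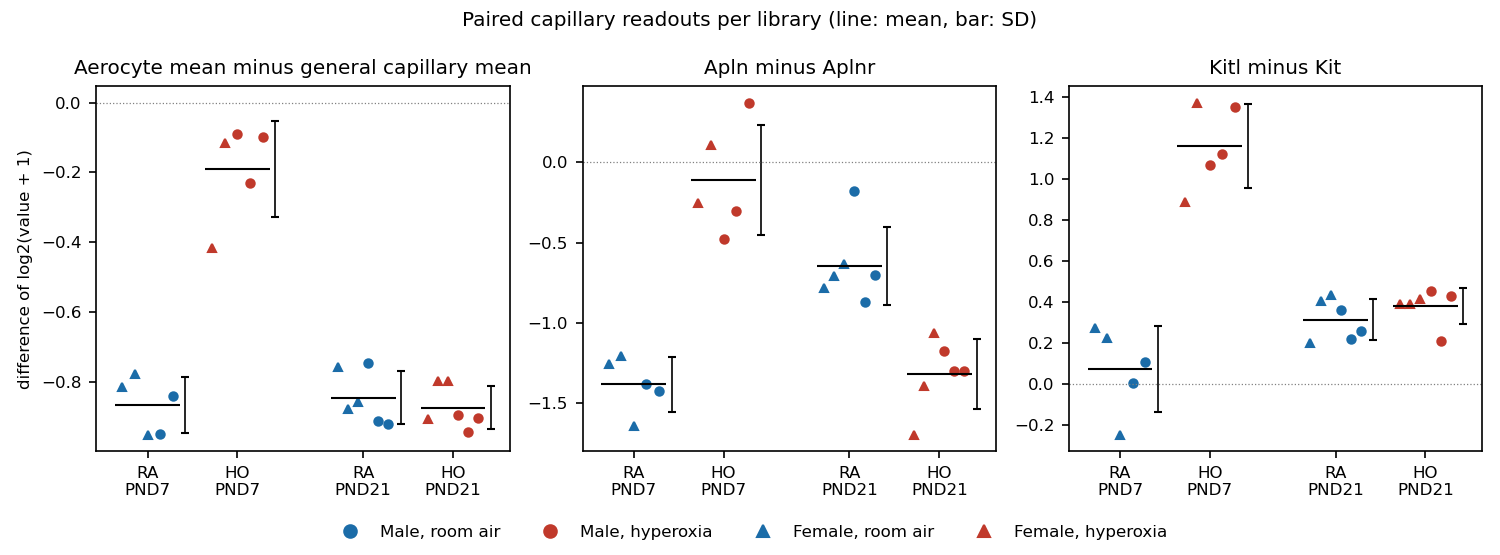
Differences of log2(value + 1) in each library (y axis): aerocyte mean minus general capillary mean, Apln minus Aplnr, and Kitl minus Kit, by oxygen status and day, with mean (line) and SD (bar). Hyperoxia libraries of PND7 lie above all others in the first panel (-0.42 to -0.09) and the last (0.89 to 1.37), and in the middle panel male room air library 1 of PND21, at -0.18, lies above 3 of them.

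Other markers of the same cells were taken from lists made for this account. Of 7 other general capillary markers tested, 5 fell and none rose at PND7, with a median log2 difference of -0.85: the glucagon-like peptide receptor Glp1r (-1.47), the semaphorin Sema3c (-0.95), the phosphatase Ptprb (-0.95), the lipid droplet gene Hilpda (-0.85) and Bmp6 (-0.66). Of 7 other aerocyte markers, 2 fell (Fibin, -0.74, and Tspan18, -0.47) and 2 rose (the cell cycle inhibitor Cdkn2b, 0.44, and Igfbp7, 0.32), with a median of -0.25. Of 16 pan-endothelial markers 12 fell and none rose (median -0.40), among them the adrenomedullin receptor gene Calcrl (-0.96), the angiopoietin receptor relative Tie1 (-0.46), Egfl7 (-0.41) and the transcription factor Tal1 (-0.40). Lower levels were thus not restricted to the general capillary list.

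Because the pan-endothelial genes were lower as a group, each member was also taken relative to their mean in its library. This shifted the median of all genes at PND7 from -0.01 to 0.35 on the log2 scale, and of the genes then called 8629 were higher and 287 lower, against 1390 and 1938 without it. Kit (-0.97), Gpihbp1 (-0.31) and Aplnr (-0.19) remained called lower and Apln remained called higher (1.10). Car4 (0.56, adjusted p = 0.000526) and Plvap (0.19, adjusted p = 0.0230) were then called higher, Plvap against its own sign without it, and Cd93 was at -0.10 (adjusted p = 0.243). Relative to the pan-endothelial mean, Kit averaged -1.07 in room air and -2.03 in hyperoxia at PND7, and -1.04 and -1.07 at PND21.

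**Figure D3:**
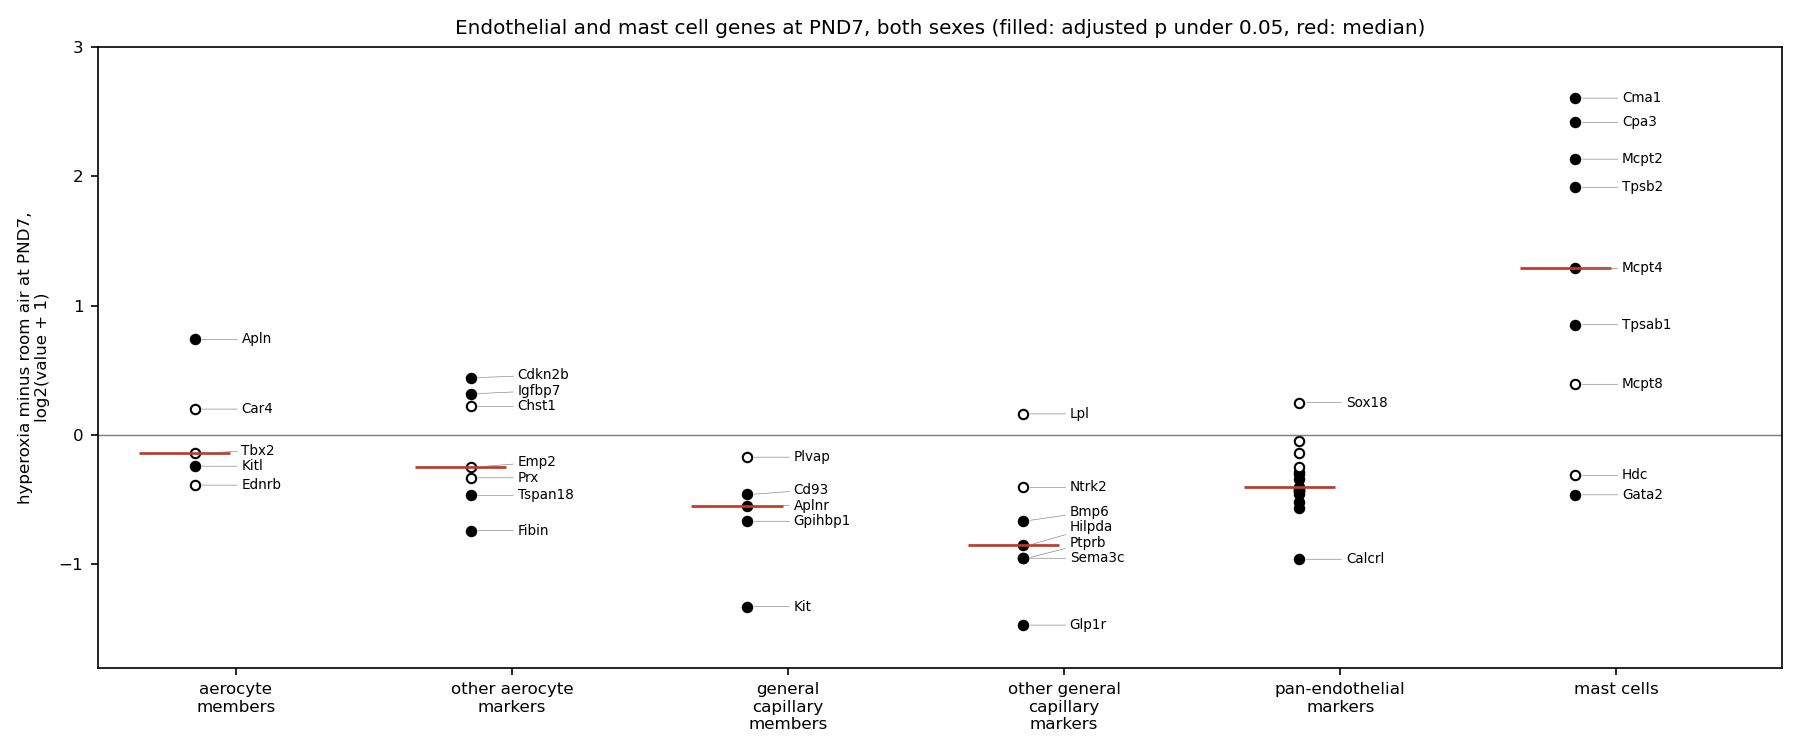
Log2 differences of hyperoxia from room air at PND7 (y axis), both sexes, for the genes of 6 lists (x axis); filled points passed an adjusted p of 0.05 and red lines are list medians. General capillary genes lie mostly below 0, with medians of -0.55 and -0.85, and mast cell proteases reach 2.60.

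Genes of the members' pathways were mostly lower or not called. In vascular endothelial growth factor and angiopoietin signalling 7 of 19 genes fell and 1 rose (median -0.28): the receptor Tek (-0.92), its ligand Angpt1 (-0.56), the Notch ligand Dll4 (-0.64) and Notch4 (-0.37) were among those that fell, and Pgf (0.45) rose. In the endothelin and nitric oxide list, which holds partners of Ednrb, 3 of 8 fell, the guanylate cyclase subunits Gucy1a3 (-0.61) and Gucy1b3 (-0.57) and the synthase Nos3 (-0.25), and the converting enzyme Ece2 (0.45) rose. The ligand Edn1 was at -0.06 and was not called.

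Among 10 genes downstream of Kit 4 fell (Gab2, Pik3r1, Sos1 and Stat5b) and none rose, with a median of -0.21. Of 8 genes of lipoprotein handling, where Gpihbp1 acts, Lipg (-0.98) and Cd36 (-0.74) fell, and Lpl, the enzyme that Gpihbp1 binds, was at 0.16 and not called. Of 4 paralogs of Tbx2, Tbx3 (-0.37), Tbx4 (-0.64) and Tbx5 (-0.43) fell, while Tbx2 itself did not pass. Arterial markers fell in 3 of 6 cases (Sema3g, Efnb2 and Gja4, median -0.19), venous markers in 2 of 6 (Slc6a2 and Ephb4, median -0.12) and lymphatic markers in none of 6, where Pdpn rose.

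The lists of neighbouring cells are read beside the 9.79% of all genes that rose and the 13.6% that fell at PND7. Of 12 cell cycle genes 10 rose (median 0.77). The cell type lists had 0 to 3 calls each. Of 9 fibroblast genes 3 fell (Pdgfra, Col3a1 and Fgf10, median -0.33), of 9 pericyte and smooth muscle genes 2 fell (Pdgfrb and Notch3, median -0.05), of 11 alveolar type 1 genes 1 rose and 1 fell (Pdpn and Vegfa), of 10 alveolar type 2 genes 2 rose (Sftpd and Sftpa1), and of 9 skeletal muscle and 6 squamous epithelial genes none passed. The part of these cells in the differences of the members was not tested.

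Mast cells carry Kit, so their genes were set beside it. Of 9 mast cell genes tested 6 rose at PND7, such as the chymase Cma1 (2.60), the carboxypeptidase Cpa3 (2.42) and the protease Mcpt2 (2.13), and Gata2, which endothelial cells also express, fell (-0.46). The summed level of the 12 genes listed lay between 58.6 and 67.1 in room air and between 103 and 135 in hyperoxia. At PND21 the ranges of the sum were 65.9 to 82.0 and 59.5 to 69.4. The mean log2(value + 1), taken over only the 9 genes tested, went the other way. It was 1.42 ± 0.13 in room air and 1.63 ± 0.20 in hyperoxia (SD, n = 6 each). The summaries differ in their genes and scale, and they had no single direction there. The group in which Kit was lowest was thus the group in which both summaries of the mast cell genes were highest, and their part in the level of Kit was not tested. Mcpt2 was at 0 in all room air libraries and Mcpt1 in all hyperoxia libraries of PND21.

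The oxygen effect in each sex was a contrast within the model of all 8 groups. A fit of only the compared groups of PND7 called 1.11% of all genes in males and 0% in females. In the model of 8 groups, males at PND7 had 4 of the 10 genes called, against 8.73% of all genes, and females 4, against 5.81%. Apln, Kit and Aplnr were called in each sex. In males the log2 differences were 0.74 (adjusted p = 0.0308) for Apln, -1.32 (adjusted p = 0.00109) for Kit and -0.53 (adjusted p = 0.0453) for Aplnr, and in females they were 0.74 (adjusted p = 0.0378), -1.33 (adjusted p = 0.00113) and -0.56 (adjusted p = 0.0431). Cd93 was called in males (-0.60, adjusted p = 0.0372) and stood at -0.32 (adjusted p = 0.263) in females, and Gpihbp1 was called in females (-0.80, adjusted p = 0.0124) and stood at -0.54 (adjusted p = 0.0582) in males, or -0.73 (adjusted p = 0.0127) without male hyperoxia library 1. Kit kept its call in each sex when any single library was left out, with a highest adjusted p of 0.0323. The other calls within a sex did not. Leaving out any 1 of the 5 libraries ended that of Apln in females (adjusted p 0.0503 to 0.191), Aplnr in males (0.0646 to 0.212) and Cd93 in males (0.0551 to 0.223). Apln in males lost its call without either room air library or hyperoxia library 3 (0.110 to 0.168), Aplnr in females without room air library 1 or 3 or either hyperoxia library (0.0672 to 0.354), and Gpihbp1 in females without room air library 3 (0.0595) or hyperoxia library 2 (0.159).

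The test of the difference between the sexes' oxygen effects called none of the 10 genes at PND7 and 0% of all genes. In that test 561 of 14200 genes had an unadjusted p under 0.05. Their share is below the 0.05 that the threshold would pass without any difference. Among the members Car4 was farthest from 0 there, at -0.42 (SE 0.23, adjusted p = 0.997), as females minus males. The males' own Car4 difference was 0.41 (adjusted p = 0.123) and included the library at 112. At PND21 none of the members and 0.0141% of all genes were called for such a difference; the value for Plvap was -0.39 (SE 0.16, adjusted p = 1). In the comparison of females with males within each exposure and day no member was called, against 0.0423% of all genes in room air and 0.0352% in hyperoxia at PND7, and 0.0634% in room air and 0.0634% in hyperoxia at PND21.

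**Figure D4:**
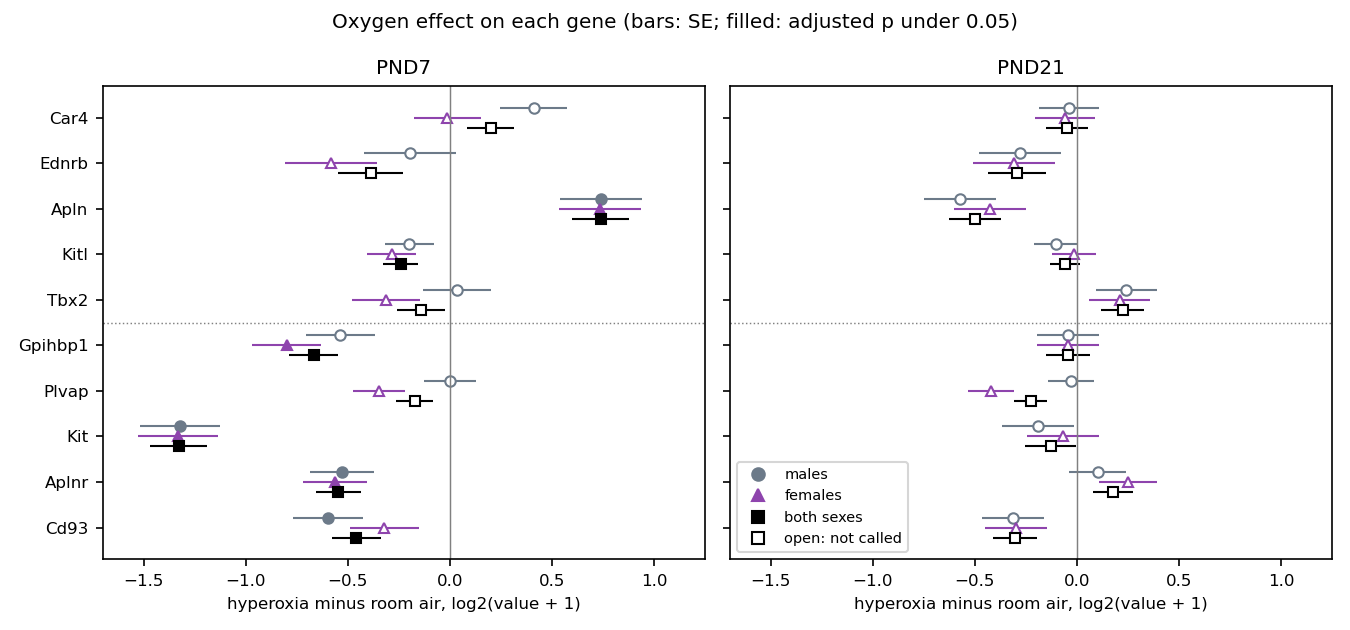
Log2 difference of hyperoxia from room air (x axis) with its SE (bars) for each gene at PND7 (left) and PND21 (right), in males, females and both; filled symbols passed an adjusted p of 0.05. Kit lies near -1.33 in both sexes at PND7, and no symbol is filled at PND21.

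At PND21 no member was called for hyperoxia against room air with both sexes together, and 0.282% of all genes were; in males and females alone none was called either, against 0.0211% and 0.0634%. Kit was at a lowest, median and highest level of 46.5, 51.6 and 56.2 in room air and 37.9, 47.4 and 54.6 in hyperoxia, and the exposures overlapped over most of their range. Its log2 difference was -0.13 (SE 0.12, adjusted p = 0.741). Gpihbp1, at 156, 183 and 202 in room air and 154, 177 and 197 in hyperoxia, differed by -0.04 (SE 0.11, adjusted p = 0.917).

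Apln had the largest difference of the members at PND21. Its lowest, median and highest levels were 25.6, 33.8 and 36.8 in room air and 17.8, 22.1 and 30.8 in hyperoxia, so the direction was opposite to that at PND7. The log2 difference of -0.50 (SE 0.13) did not pass (adjusted p = 0.108). Leaving out female room air library 1, at 25.6, or female hyperoxia library 3, at 30.8, brought it past the threshold (-0.57, adjusted p = 0.0485, and -0.60, adjusted p = 0.0278).

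Aplnr stood at 39.0, 55.3 and 60.6 in room air and 50.2, 59.8 and 65.4 in hyperoxia at PND21 (0.18, SE 0.10, adjusted p = 0.526). Cd93, between 82.6 and 126 in room air and between 71.8 and 102 in hyperoxia, differed by -0.31 (SE 0.11, adjusted p = 0.255), Ednrb by -0.29 (SE 0.14, adjusted p = 0.445) and Plvap by -0.23 (SE 0.08, adjusted p = 0.259). Tbx2 was at 0.23 (SE 0.11, adjusted p = 0.428), and Car4 and Kitl were within 0.06 of 0. None of the 10 genes had exposures without overlap at PND21, where 1.22% of all genes did. None of the genes in the other lists was called at PND21.

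The difference between the days in the oxygen effect was tested directly. It was called for 4 of the 10 genes and for 10.5% of all genes. As PND21 minus PND7 it was -1.24 (SE 0.19, adjusted p = 0.000975) for Apln, 1.20 (SE 0.19, adjusted p = 0.00119) for Kit, 0.72 (SE 0.15, adjusted p = 0.00674) for Aplnr and 0.62 (SE 0.16, adjusted p = 0.0223) for Gpihbp1. These are the ligand and receptor of the apelin pair, the receptor of the Kit pair and the lipase anchor. For Gpihbp1 the call did not hold without male room air library 2 of PND7 (adjusted p = 0.0530) or female hyperoxia library 2 of PND7 (adjusted p = 0.0683). It was also lost relative to pan-endothelial genes, where the difference was 0.37. Kitl (0.18, adjusted p = 0.308), Car4 (-0.25, adjusted p = 0.317) and Cd93 (0.15, adjusted p = 0.568) were not called. Of the other general capillary markers 4 of 7 were called in the same direction as Kit, namely Glp1r (1.14), Ntrk2 (0.87), Sema3c (0.83) and Ptprb (0.70). The days share no libraries, and the order behind the title numbers, which runs with oxygen at PND7, enters this difference through the PND7 effect.

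Between PND7 and PND21 in room air, 7 of the 10 genes changed, against 49.4% of all genes. Plvap and Car4 rose most. Plvap rose from 105 ± 15.6 (SD, n = 5) to 202 ± 24.6 (SD, n = 6), a log2 difference of 0.97 (SE 0.09, adjusted p = 9.27e-08). Car4 rose from 65.0 ± 6.32 to 119.8 ± 8.31, a difference of 0.88 (SE 0.11, adjusted p = 4.67e-06). Apln (0.70), Gpihbp1 (0.56), Kitl (0.50) and Ednrb (0.49) rose too, and Tbx2 fell by 0.42 on the log2 scale (SE 0.11, adjusted p = 0.00465). Kit (0.26, adjusted p = 0.111), Cd93 (0.27, adjusted p = 0.0559) and Aplnr (-0.04, adjusted p = 0.785) did not pass. Without female room air library 3 of PND7, Kit (0.34, adjusted p = 0.0425) and Cd93 (0.30, adjusted p = 0.0457) passed, and Cd93 also without male (0.31, adjusted p = 0.0430) or female (0.37, adjusted p = 0.00560) room air library 1 of PND21 or without all 6 muscle-rich libraries (0.36, adjusted p = 0.0303). Kitl, Car4, Ednrb, Gpihbp1, Plvap and Apln had no overlap between the days, which was so for 33.4% of all genes.

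The median change with age in room air was 0.50 over the aerocyte members and 0.27 over the general capillary members, beside -0.01 over all genes. Of 7 other general capillary markers 6 rose (median 1.13), led by Sema3c (1.28), Hilpda (1.18) and Bmp6 (1.17), and of 7 other aerocyte markers 5 rose and Fibin fell (median 0.36). Pan-endothelial genes rose in 8 of 16 cases (median 0.24), alveolar type 1 genes in 8 of 11, and all 12 cell cycle genes fell (median -2.35). All PND21 samples carry lower title numbers than the PND7 samples, so that order and age cannot be told apart.

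In hyperoxia 9 of the 10 genes changed between the days, against 55.4% of all genes. Kit rose most, from 16.8 ± 3.87 (SD, n = 5) to 47.1 ± 5.55 (SD, n = 6), which is 2.81-fold, with a log2 difference of 1.46 (SE 0.13, adjusted p = 1.06e-07). Gpihbp1 rose 2.22-fold (1.18, adjusted p = 2.12e-07), followed by Plvap (0.91), Kitl (0.69), Aplnr (0.68), Car4 (0.63), Ednrb (0.58) and Cd93 (0.43). Apln alone fell, by 0.54 on the log2 scale (SE 0.13, adjusted p = 0.00262), and Tbx2 (-0.05, adjusted p = 0.699) did not pass. Kitl, Gpihbp1, Aplnr, Kit and Plvap had no overlap between the days, against 33.6% of all genes. Taken relative to pan-endothelial genes, Cd93 stood at -0.0712 and 5 members rather than 8 were called higher. Of all genes 791 were then called higher and 9893 lower, against 4195 and 3666 without it. The same libraries enter the oxygen and the age comparisons.

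The order of the 8 group means differed between the genes. Kit, Aplnr and Cd93 shared one break, between the PND7 hyperoxia groups of each sex, which were lowest, and the group above them; for Kit that step was from 42.3 in female room air to 16.9 in male hyperoxia. Above it, neighbouring groups overlapped, from 42.3 to 53.0 for Kit, 51.9 to 61.7 for Aplnr and 84.4 to 110.0 for Cd93. Gpihbp1 had a step above the PND7 hyperoxia groups (84.8 and 71.7) and another above the PND7 room air groups (125 and 121), with the PND21 groups from 169 to 189. Kitl separated by day, with PND21 groups from 60.0 to 64.3 and PND7 groups from 36.4 to 45.2, and the neighbours within each day overlapped.

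Plvap also separated by day, with the mean of female hyperoxia lowest at PND21 (157) and at PND7 (88.7), each without overlap with the neighbour above. At PND7 that neighbour was male room air. Male hyperoxia of PND7, the next group up, ran from 83.7 to 101 and so spanned the female hyperoxia values. Car4 ranged from 115 to 122 in the PND21 groups, with no step between neighbours, and male hyperoxia of PND7 (87.3) lay above the other PND7 groups (64.4 to 65.4) without overlap. Apln had its highest means in male room air of PND21 (34.2) and male hyperoxia of PND7 (34.1), which overlapped, and its lowest in the PND7 room air groups (19.9 and 19.5). Ednrb ran from 27.3 in female room air of PND21 to 12.7 in female hyperoxia of PND7, with 1 step, between male room air (27.03) and male hyperoxia (22.1) of PND21. Tbx2 ran from 118 in female room air of PND7 to 76.2 in male room air of PND21, with no step between neighbours.

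Per unit of transcript length, Gpihbp1 and Plvap were the most abundant members, with medians of 155 and 150.4 over the 22 libraries. Their means over the libraries were higher than those of 98.0% and 98.1% of genes. Ednrb was the least abundant, with a median of 21.4. Kit varied most, by 4.67-fold between its lowest and highest library, and Aplnr least, by 2.05-fold.

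The members also varied within groups. After the group means were removed, general capillary genes were correlated with each other in the 10 libraries of PND7 (median r 0.67 over 10 pairs, from -0.02 to 0.93), while aerocyte genes were not as a set (median r -0.03, from -0.74 to 0.85). Pairs of an aerocyte and a general capillary gene lay between (median r 0.36, positive in 18 of 25 pairs). At PND21, with 12 libraries, the medians were 0.71 for general capillary, 0.73 for aerocyte and 0.64 for mixed pairs, so correlation was not limited to genes of one cell type. These correlations describe libraries that share tissue composition and normalization.

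Over all 22 libraries, the gene most like Kit by Pearson's r was Glp1r (r = 0.98), itself in the list of general capillary markers, and the next were Rnf144a (0.97) and Nxpe4 (0.96). Gpihbp1 was most like Ces1d, Dpp4 and Tmem100 (each 0.98), Cd93 like Ctnnd1 (0.97), Myst3 (0.96) and Cdh5 (0.96), Plvap like Fcrl1, Bmp6 and Chst3 (each 0.97), and Aplnr like Rbl2 and Zfp292 (each 0.93) and Zdhhc17 (0.91). Among aerocyte genes, Car4 was most like Snx25 (0.96), Ednrb like Cav1 (0.93), Kitl like Slfn5 (0.98), Apln like Gstm2 (0.86) and Tbx2 like Tchp (0.89). Apln and Tbx2 had the lowest such values. The groups of age and exposure underlie these correlations, and they were given no test.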

How the data were processed

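Polyadenylated RNA of mouse lung in 22 libraries was analysed in 8 groups, taken from the labels. The authors used TopHat2 2.0 and Cufflinks 2.0 with the mm10 build, per the submitters' processing notes. The authors deposited 1 FPKM value per gene and library, a unit inferred from these tools, per the submitters' processing notes, and from the values. Quantile normalization is read from the table's name and its near-equal library sums (529406 to 533090), so read depth is unknown. All sample columns were used (0 left out). Values were taken as log2(FPKM + 1), which understates changes of low genes. Genes at 1 or more in at least 2 libraries were kept (14200). One model of the 8 groups, with moderated variance and trend, was fitted in limma 3.58.1 (R 4.3.3), tested two-sided over 15 contrasts, adjusted within each over all genes tested, and checked on simulated data. Coordinates come from GENCODE (GRCm38) and promoters from RefSeq. The genes named are the 10 members, from each list at most 4 called genes, by smallest adjusted p, and the genes among the 3 most like each member by Pearson's r; Hilpda, Pgf, Edn1, Lpl and Gata2 were named after their values were seen. The members and the 20 further lists were chosen with earlier results of these data known. The result of 1 of these lists is not reported here. There were 11 alternative analyses, besides leaving out each library. The labels number each sample once and give no replicate numbers shared between groups; the library numbers in the text are names in accession order.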

Additional observations from a re-analysis of the deposited data

Results flagged for a closer look

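For 4 genes the oxygen effect differed between the days by the test of that difference. The effect at PND21 minus the effect at PND7, on the log2(value + 1) scale, was -1.24 for Apln (limma adjusted p = 0.000975), 1.20 for Kit (adjusted p = 0.00119), 0.72 for Aplnr (adjusted p = 0.00674) and 0.62 for Gpihbp1 (adjusted p = 0.0223). For Apln the effect was 0.74 at PND7 and -0.50, uncalled, at PND21. For Kit, Aplnr and Gpihbp1 it was -1.33, -0.55 and -0.67 at PND7 and -0.13, 0.18 and -0.04 at PND21. The call of the day difference for Gpihbp1 was lost in 3 of 33 alternatives. The order behind the title numbers runs with oxygen at PND7 and was mixed at PND21. Its part in the PND7 effect, and so in the difference, cannot be told apart from that of oxygen.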

How the results depend on the processing

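Kit, Gpihbp1, Aplnr and Apln kept their direction and their call at PND7, both sexes, in each of 21 alternatives: Kit ran from -1.52 to -0.97, Gpihbp1 from -0.77 to -0.31, Aplnr from -0.62 to -0.19 and Apln from 0.63 to 1.10. Their limma adjusted p did not pass 0.00275, 0.0158, 0.0408 and 0.0224. The day difference of the oxygen effect held for Apln, Kit and Aplnr in each of 33 alternatives.

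Relative to pan-endothelial genes, Kitl (0.12) and Plvap (0.19) at PND7 changed sign, and so did Cd93 in the age effect in hyperoxia, at -0.0712. Effects that were called neither with nor without the centring changed sign too. Examples are Tbx2 at PND7 (0.22) and the day difference for Cd93 (-0.10) and Kitl (-0.07). In that setting the members called higher numbered 3 at PND7 in both sexes and 3 in males, and 5 with age in hyperoxia. Those called lower numbered 3 at PND7 in both sexes, 1 in males, 3 for the day difference, 2 with age in room air and 2 with age in hyperoxia. Of all 14200 genes, 8629 were called higher and 287 lower at PND7 in both sexes, and 4180 and 165 in males. For the day difference 233 were higher and 1923 lower. With age they were 1520 and 6753 in room air, and 791 and 9893 in hyperoxia. With library quality weights, members called higher at PND21 numbered 1 in both sexes and 1 in females (Tbx2), and those called lower 4 in both sexes, 4 in females, 1 in males, 1 for the sex difference and 1 in females against males in hyperoxia, while 6 were lower in males at PND7. With these weights 18% of all genes were called at PND21 in both sexes, against 0.282% without them. In females at PND21 the share was 28.2% (0.0634% without them) and in males 2.18% (0.0211%). For the sex difference at PND21 it was 6.56% (0.0141%), and in males at PND7 39% (8.73%). The rise in calls was thus not particular to the members. At PND7 the share of all genes called was 23.4%, and 35.7% with these weights, 62.8% relative to pan-endothelial genes, 11.9% without the muscle-rich libraries and 12.9% without a filter.

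At PND7, without the muscle-rich libraries 0 members were called higher in males, 0 in females, and lower 3 in both sexes and 1 in females. The share of all genes called was then 1.99% in males and 3.61% in females, against 8.73% and 5.81% with them. Without a filter on low values 0 were higher in males and 0 in females, and 1 was lower in males. There 4.07% of all genes were called in males and 2.73% in females, so calls fell beyond the members too. With only the compared groups in the fit 0 were higher in males and 0 in females, and 0 were lower in females; the share of all genes called there was 1.11% in males and 0% in females, so the loss was not particular to the members. With muscle content as a covariate 1 (Cd93) was lower at PND21, where 0.507% of all genes were called. Leaving out single libraries gave 0 to 1 members higher in males, 0 in females in each case, 3 to 6 lower in both sexes, 1 to 2 lower in males and 1 to 3 in females at PND7, and 0 to 1 lower at PND21. The causes of these changes were not tested. Fewer libraries enter the fits that leave some out. No paired analysis was possible because the labels give the groups no shared replicate numbers. Read depth is not known, so the counting error of single values is not given.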
